A study of Caenorhabditis elegans with 20 samples.

Results

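A set of 7 genes of fibroblast growth factor (FGF) signaling was followed in larvae of the nematode *Caenorhabditis elegans*. They were the receptor gene *egl-15*, the ligand genes *egl-17* and *let-756*, the phosphatase gene *clr-1*, and the signaling genes *sem-5*, *soc-1* and *soc-2*. The genes were chosen by name, with earlier results of these data known, and all 7 were found among the 19861 named genes of the deposited expression tables. Expression had been measured by RNA sequencing of gonadal cells and of whole animals, in males and hermaphrodites, after starved hatchlings had fed for 9.5 hr or for 15 hr. These 8 groups comprised 20 samples, with 3 per group at 9.5 hr and 2 per group at 15 hr. Comparing the sexes asks which genes differ as the early gonad becomes dimorphic, and comparing sorted with unsorted cells asks which transcripts are more abundant in the gonad.

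The gonadal cells were the somatic gonad precursors Z1 and Z4 at 9.5 hr and the daughters of those cells at 15 hr. After dissociation of the larvae they had been sorted for Venus, a fluorescent protein that the integrated array *rdIs4* expresses in this lineage under the *ehn-3a* promoter. Whole-animal samples were dissociated cells that had not been sorted. Males of every group were *tra-2(ar221)*; *xol-1(y9)*; *rdIs4* animals, which have XX chromosomes and develop as males when *tra-2* is inactivated at the restrictive temperature. Hermaphrodites were *xol-1(y9)*; *rdIs4*, except for the whole animals at 9.5 hr, which were *xol-1(y9)* without the array. All groups therefore carried the *xol-1* mutation, and an effect of the *tra-2* mutation apart from maleness cannot be told apart from sex.

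EGL-15 is the only FGF receptor of the nematode, a receptor tyrosine kinase that signals through the small GTPase Ras to MAP kinase. EGL-17 and LET-756 are FGF-like ligands of the receptor. EGL-17 attracts the sex myoblasts, precursors of the egg-laying muscles, to their place beside the hermaphrodite gonad, whereas LET-756 is needed for viability. EGL-15 also controls fluid balance, and there CLR-1, a receptor tyrosine phosphatase, opposes it: animals without CLR-1 activity fill with clear fluid. SEM-5 is an adaptor protein of the GRB2 kind that links activated receptors to Ras. SOC-1, an adaptor of the GAB1 kind, and SOC-2, a leucine-rich repeat protein of the SHOC2 kind, were both found because their loss suppresses the *clr-1* phenotype.

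Levels are given in FPKM, a unit that scales the fragments sequenced by library size and by the length of the transcript and so permits levels to be compared between genes. The deposited tables hold 1 FPKM value per gene and group, in which Cuffdiff had combined all samples of the group. The spread between samples is therefore unknown, and no difference below carries an error or a test. Differences are log2 ratios of FPKM + 1, a scale that understates the differences of genes with low levels. Genes were compared where at least 1 FPKM was reached in 1 of the 2 groups, a filter that all 7 genes passed in all comparisons, and a difference of at least 4-fold on that scale (a log2 difference of 2) was counted. In RNA from a mixture of cells, fewer cells of a type and less RNA per cell cannot be told apart.

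The 8 groups had FPKM totals of 692941 to 784031, with 12506 to 17947 genes at 1 FPKM or more. The number of reads behind each value is unknown. The sorted cells were checked with 5 markers of the somatic gonad precursors, whose summed level was 227 and 220 FPKM in male and hermaphrodite gonadal cells at 9.5 hr, against 30.5 and 35.4 FPKM in whole animals. At 15 hr the sums were 232 and 147 FPKM in gonadal cells and 49.0 and 41.2 FPKM in whole animals. Of the 5 markers, *fkh-6*, *gem-4* and *lag-2* exceeded the whole-animal level of the same sex and time in all 4 comparisons. *hnd-1* was lower in all 4 and was listed at 0 in male gonadal cells at 15 hr. *ehn-3*, whose promoter drives the sorting label, reached 10.7 and 8.97 FPKM in male and hermaphrodite gonadal cells at 9.5 hr but 2.08 and 0.287 FPKM at 15 hr, the last below the 0.592 FPKM of hermaphrodite whole animals.

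The receptor gene *egl-15* showed the largest sex difference of the 7 genes. It lies on chromosome X, from 11016344 to 11023329 on the ce10 genome. At 9.5 hr its level was 39.2 FPKM in male gonadal cells, 15.0 FPKM in hermaphrodite gonadal cells, 35.1 FPKM in male whole animals and 30.3 FPKM in hermaphrodite whole animals. At 15 hr the corresponding levels were 21.1, 3.26, 35.7 and 28.1 FPKM. Hermaphrodite gonadal cells were thus the low group at both times, while the male gonadal level was close to that of whole animals at 9.5 hr and lower at 15 hr.

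Male gonadal cells had 2.61 times the *egl-15* FPKM of hermaphrodite gonadal cells at 9.5 hr, a log2 difference of 1.33. At 15 hr they had 6.49 times as much, a log2 difference of 2.38. The ratio at 15 hr rests on a low hermaphrodite level, 3.26 FPKM, and the reads behind it are unknown. In whole animals the male level was 1.16 times the hermaphrodite level at 9.5 hr and 1.27 times at 15 hr, log2 differences of 0.21 and 0.34. Among the 14240 genes compared in gonadal cells at 9.5 hr, *egl-15* ranked 243 in the male direction, and 2.72% of genes differed as much or more in either direction. Among the 13667 genes at 15 hr it ranked 112, and 1.54% of genes differed as much or more. As a percentage of whole-animal FPKM of the same sex, *egl-15* stood at 111.5% in male and 49.5% in hermaphrodite gonadal cells at 9.5 hr, and at 59.2% and 11.6% at 15 hr. Set among the genes with at least 1 FPKM, *egl-15* was above 60.1% of them in male gonadal cells at 9.5 hr and above 19.4% in hermaphrodite gonadal cells at 15 hr.

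**Figure D1:**
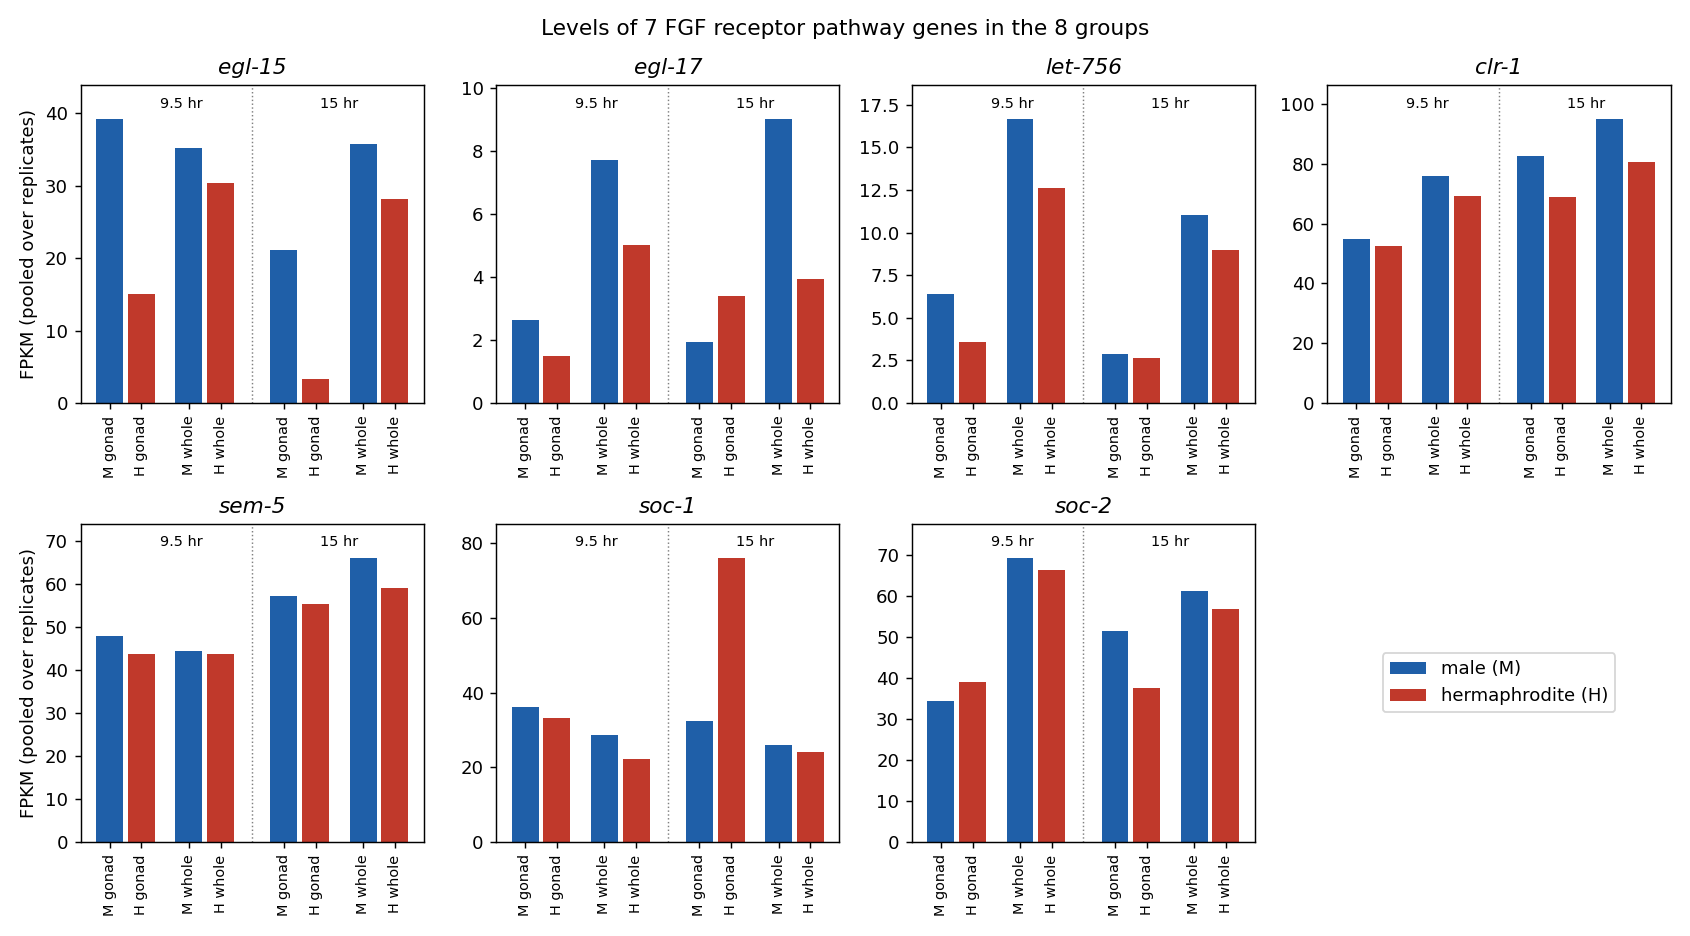
Levels of the 7 genes in FPKM (y axis, from 0, its range set for each gene) in the 8 groups (x axis), with male groups (M) in blue and hermaphrodite groups (H) in red, and with 9.5 hr to the left and 15 hr to the right of the dotted line. Each bar is 1 pooled value without an error. *egl-15* is lowest in hermaphrodite gonadal cells at 15 hr (3.26 FPKM) and *soc-1* is highest there (76.1 FPKM).

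Markers of body wall muscle moved in the same direction as *egl-15* in gonadal cells. All 5 (*myo-3*, *unc-54*, *hlh-1*, *unc-89* and *pat-10*) were higher in male than in hermaphrodite gonadal cells, by 1.38 to 1.95 times at 9.5 hr and by 1.8 to 3.70 times at 15 hr. In gonadal cells their summed level was 413 FPKM (male) and 270 FPKM (hermaphrodite) at 9.5 hr, and 472 and 221 FPKM at 15 hr. In whole animals the sums were 1106 and 1138 FPKM at 9.5 hr and 925 and 945 FPKM at 15 hr, so that no such sex difference was seen there. The male to hermaphrodite ratio of *egl-15* exceeded that of each of the 5 markers at both times, and none of the markers was at 0 in any group. At 15 hr the 5 hypodermal markers were at 1.00 to 3.51 times the hermaphrodite level in male gonadal cells. Among them *che-14* was level between the sexes, at 58.6 FPKM in each, and it exceeded its whole-animal level in gonadal cells. The 3 coelomocyte markers were higher in males by 1.4 to 2.74 times. Of the somatic gonad markers 4 of 5 were higher, with a median ratio of 1.23, and their sum was 1.58 times as high. That sum was moved most by *fkh-6* (72.8 against 14.8 FPKM), and *hnd-1* was lower in males (0 against 0.265 FPKM). Of the neuronal, germline and intestinal markers 4 of 5, 4 of 5 and 3 of 5 were higher in male gonadal cells at that time, at 0.903 to 2.96, 0.936 to 2.37 and 0.526 to 2.35 times the hermaphrodite level, and 2 of the 4 pharyngeal markers were. Most of the marker lists thus had more members higher in males than in hermaphrodites. At 9.5 hr 2 of the 5 hypodermal, 2 of the 3 coelomocyte, 3 of the 5 neuronal and 2 of the 5 germline markers were higher in males, as were all 5 intestinal markers, by 1.65 to 2.76 times, and all 4 pharyngeal markers found, by 1.44 to 1.73 times. In whole animals at 9.5 hr all 4 pharyngeal markers were likewise higher in males, by 1.31 to 1.73 times, as were 3 of the 5 intestinal markers. The part of these cell types in the *egl-15* difference was not tested.

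**Figure D2:**
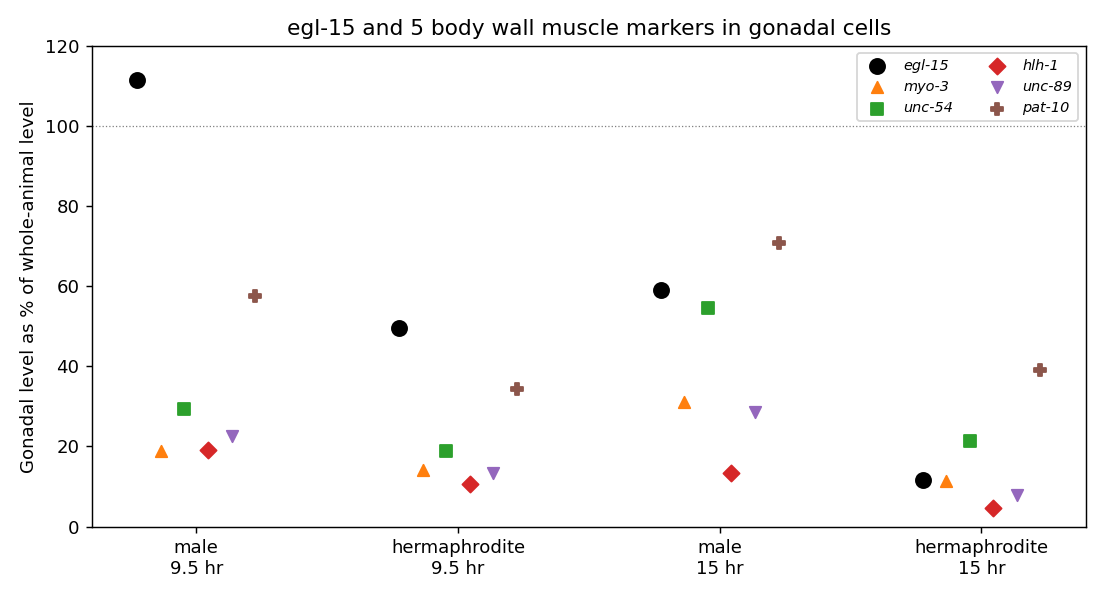
Level in gonadal cells as a percentage of the level in whole animals of the same sex and time (y axis, linear, dotted line at 100%) for *egl-15* (black circles) and 5 body wall muscle markers in each sex and time (x axis), each point being a ratio of pooled FPKM values. *egl-15* is above all 5 markers in males at 9.5 hr (111.5%) and in hermaphrodites at 9.5 hr (49.5%), and falls among them at 15 hr, where it stands at 59.2% in males and 11.6% in hermaphrodites.

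The ligand genes *egl-17* and *let-756* had the lowest levels of the 7 genes in every group but 1. *egl-17* lies on chromosome X, from 489696 to 492274. Its level at 9.5 hr was 2.65 FPKM in gonadal cells of males and 1.48 FPKM in those of hermaphrodites, against 7.70 and 5.01 FPKM in whole animals. At 15 hr it was 1.94 and 3.38 FPKM in gonadal cells and 9.01 and 3.93 FPKM in whole animals. *egl-17* was therefore below the whole-animal level in all 4 comparisons, with log2 differences of -1.25 and -1.28 in males and hermaphrodites at 9.5 hr and of -1.77 and -0.17 at 15 hr.

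The direction of the *egl-17* sex difference varied between groups. Males were higher in whole animals, with log2 differences of 0.53 at 9.5 hr and 1.02 at 15 hr, and in gonadal cells at 9.5 hr, with 0.56. Hermaphrodites were higher in gonadal cells at 15 hr, with -0.58. Only the whole-animal difference at 15 hr, 2.29 times in FPKM, was larger than 2-fold. Both gonadal values were below 4 FPKM at each time, and the reads behind them are unknown.

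*let-756*, on chromosome III from 6407076 to 6409965, had at 9.5 hr 6.38 FPKM in gonadal cells of males and 3.59 FPKM in those of hermaphrodites, against 16.7 and 12.6 FPKM in whole animals. At 15 hr its level was 2.87 and 2.62 FPKM in gonadal cells and 11 and 8.97 FPKM in whole animals. It was lower in gonadal cells in every comparison, by a similar amount in each: the log2 differences were -1.26 at 9.5 hr and -1.64 at 15 hr in males, and -1.57 and -1.46 in hermaphrodites. The sexes lay closer together, with male minus hermaphrodite log2 differences in gonadal cells of 0.68 (9.5 hr) and 0.09 (15 hr), while whole animals gave 0.38 and 0.27.

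Added together, the ligand genes reached 9.03 and 5.07 FPKM in male and hermaphrodite gonadal cells at 9.5 hr and 4.80 and 6.01 FPKM at 15 hr. In whole animals the sums were 24.4 and 17.6 FPKM at 9.5 hr and 20.0 and 12.9 FPKM at 15 hr. *let-756* was the higher of the pair in 7 of the 8 groups, at 1.22 to 2.52 times the *egl-17* level, and in hermaphrodite gonadal cells at 15 hr the ratio was 0.775. Gonadal cells also had lower levels of all 5 body wall muscle markers in each comparison with whole animals. Summed, these markers stood at 37.4% (9.5 hr) and 51.0% (15 hr) of the whole-animal level in males and at 23.8% and 23.4% in hermaphrodites. Low sums were not particular to muscle. Over the same comparisons coelomocyte markers stood at 4.17% to 12.7%, pharyngeal at 16.4% to 25.9% and neuronal at 25.9% to 34.6%. Germline markers stood at 21.5% to 38.5%, intestinal at 23.3% to 47.7% and hypodermal at 43.5% to 88.0%. The part of these cell types in the ligand differences was not tested.

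The phosphatase gene *clr-1* had the highest level of the 7 in 7 of the 8 groups and differed little between them. It lies on chromosome II, from 5466348 to 5473783. At 9.5 hr it had 55.0 and 52.5 FPKM in male and hermaphrodite gonadal cells and 76.0 and 69.2 FPKM in whole animals, and at 15 hr 82.6, 69.0, 95 and 80.5 FPKM in the same order. Log2 differences between the sexes were 0.07 to 0.26 and those of gonadal cells against whole animals were -0.46 to -0.20.

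The balance of the receptor transcript to that of the phosphatase that opposes it was also compared within each group. The ratio of *egl-15* to *clr-1* FPKM was 0.712 in male and 0.286 in hermaphrodite gonadal cells at 9.5 hr, and 0.256 and 0.0472 at 15 hr. In whole animals it was 0.462 and 0.438 at 9.5 hr and 0.376 and 0.349 at 15 hr. Hermaphrodite gonadal cells at 15 hr were thus the group with the least receptor transcript relative to phosphatase transcript, with 21.2 times as much *clr-1* as *egl-15*.

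The adaptor gene *sem-5*, on chromosome X from 7959403 to 7961675, had the narrowest range of the 7 genes. Its levels at 9.5 hr were 48.0 and 43.8 FPKM in male and hermaphrodite gonadal cells and 44.3 and 43.6 FPKM in whole animals. At 15 hr they were 57.2, 55.5, 66.2 and 59.0 FPKM. No log2 difference of *sem-5* lay outside -0.21 to 0.16, and its highest level was 1.52 times its lowest, a span that includes any difference in scale between the 2 Cuffdiff runs.

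*soc-1* was the only gene of the 7 with a hermaphrodite-high difference larger than 2-fold. It lies on chromosome V, from 4642938 to 4646909. At 9.5 hr it had 36.0 FPKM in male gonadal cells, 33.3 FPKM in hermaphrodite gonadal cells, 28.7 FPKM in male whole animals and 22.2 FPKM in hermaphrodite whole animals. At 15 hr the levels were 32.3, 76.1, 26 and 24.2 FPKM, so that a single group, hermaphrodite gonadal cells at 15 hr, stood apart from the other 7.

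In that group *soc-1* was 2.35 times the level in male gonadal cells, a log2 difference of -1.21 for male minus hermaphrodite, with rank 450 in the hermaphrodite direction, and 9.28% of the 13667 genes differed as much or more in either direction. It was 3.15 times the level in hermaphrodite whole animals, a log2 difference of 1.62. The other sex differences of *soc-1* were 0.11 in gonadal cells at 9.5 hr and 0.35 and 0.10 in whole animals. Gonadal cells had more *soc-1* than whole animals in all 4 comparisons, the other log2 differences being 0.32 and 0.56 in males and hermaphrodites at 9.5 hr and 0.31 in males at 15 hr. In hermaphrodite gonadal cells at 15 hr most of the marker lists had more members below the male gonadal level than above it, as given above. Their part in the *soc-1* difference was not tested.

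*soc-2*, on chromosome IV from 5126998 to 5145802, tended the other way between gonadal cells and whole animals. It had 34.4 and 39.0 FPKM in male and hermaphrodite gonadal cells and 69.2 and 66.2 FPKM in whole animals at 9.5 hr. At 15 hr it had 51.3 and 37.5 FPKM in gonadal cells and 61.2 and 56.8 FPKM in whole animals. All 4 gonadal values were lower, with log2 differences of -0.99 and -0.75 at 9.5 hr and -0.25 and -0.59 at 15 hr in males and hermaphrodites. The sexes differed by -0.18 and 0.44 in gonadal cells at the earlier and later times and by 0.06 and 0.10 in whole animals. The ratio of *soc-1* to *soc-2* FPKM was 1.05 and 0.853 in male and hermaphrodite gonadal cells at 9.5 hr and 0.630 and 2.03 at 15 hr, whereas in whole animals it lay between 0.336 and 0.425.

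**Figure D3:**
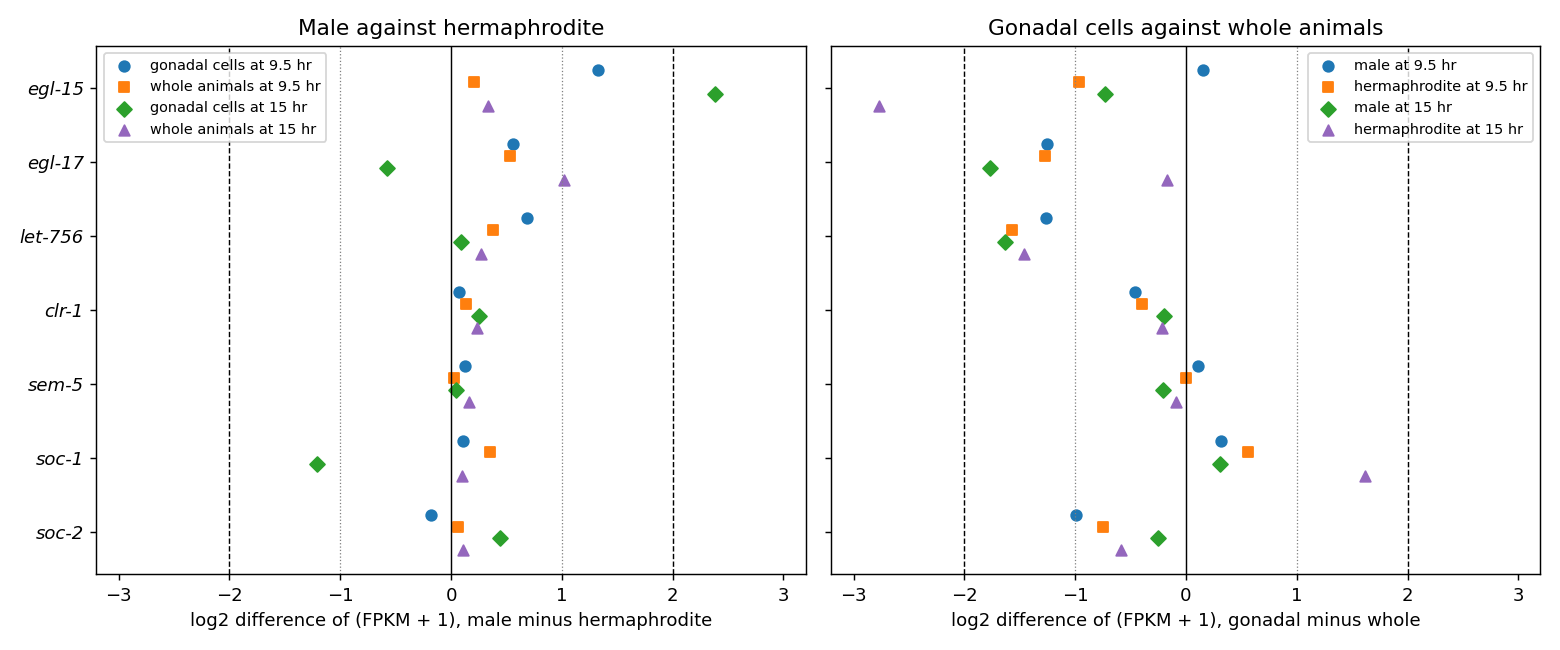
Log2 differences of FPKM + 1 (x axis) for the 7 genes (y axis), male minus hermaphrodite in the left panel and gonadal cells minus whole animals in the right panel, 1 symbol per comparison. Dotted lines mark 2-fold and dashed lines 4-fold. *egl-15* lies past 4-fold in gonadal cells at 15 hr on the left (2.38) and in hermaphrodites at 15 hr on the right (-2.77), and no other symbol lies past 4-fold.

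Counted over the 7 genes, 1 (*egl-15*) differed by at least 4-fold between the sexes in gonadal cells at 15 hr, where 2.5% of all genes compared did so. None differed by at least 4-fold between the sexes in gonadal cells at 9.5 hr, in whole animals at 9.5 hr or in whole animals at 15 hr, where 0.723%, 0.846% and 0.734% of genes did. At 2-fold the count in gonadal cells was 1 at 9.5 hr (*egl-15*) against a background of 6.63%, and 2 at 15 hr (*egl-15* and *soc-1*) against 14.5%. In whole animals it was 0 at 9.5 hr against 6.14% and 1 at 15 hr (*egl-17*) against 5.41%. In whole animals all 7 genes were higher in males at both times, with medians of 0.21 and 0.24 beside medians of -0.07 and 0.01 over all genes compared. In gonadal cells 6 of 7 were higher in males at 9.5 hr, with a median of 0.13 beside 0.01 for all genes, and 5 of 7 at 15 hr, with a median of 0.09 for the 7 genes and for all genes.

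Gonadal cells against whole animals gave 1 gene past 4-fold, *egl-15* in hermaphrodites at 15 hr, where 25.2% of genes differed that much. In males at 9.5 hr, hermaphrodites at 9.5 hr and males at 15 hr the count was 0, with backgrounds of 15.1%, 15.2% and 18.2%. At 2-fold *egl-17* and *let-756* were the genes counted in both sexes at 9.5 hr and in males at 15 hr, 2 each time, against 41.9%, 49.6% and 50.7% of genes. At 9.5 hr this count depended on the scale: centered on the median of all genes, *egl-17* and *let-756* stood at -0.96 and -0.97 in males and at -0.66 and -0.95 in hermaphrodites, all within 2-fold, and *soc-1* in hermaphrodites moved from 0.56 to 1.18. In hermaphrodites at 15 hr the count was 3 (*egl-15*, *let-756* and *soc-1*) against 57.4%. Differences between sorted and unsorted cells were common over the whole transcriptome, and the shares of the 7 genes were no larger than the background in any of these 4 comparisons at either limit. The median of the 7 genes was -0.46 and -0.75 in males and hermaphrodites at 9.5 hr, beside -0.29 and -0.62 for all genes, and -0.25 and -0.22 at 15 hr, beside -0.10 and -0.22. The medians over all genes depended on the filter. With a filter of 5 FPKM they were 0.06 and 0.03 in males and hermaphrodites at 9.5 hr, and 0.12 and 0.10 at 15 hr.

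**Figure D4:**
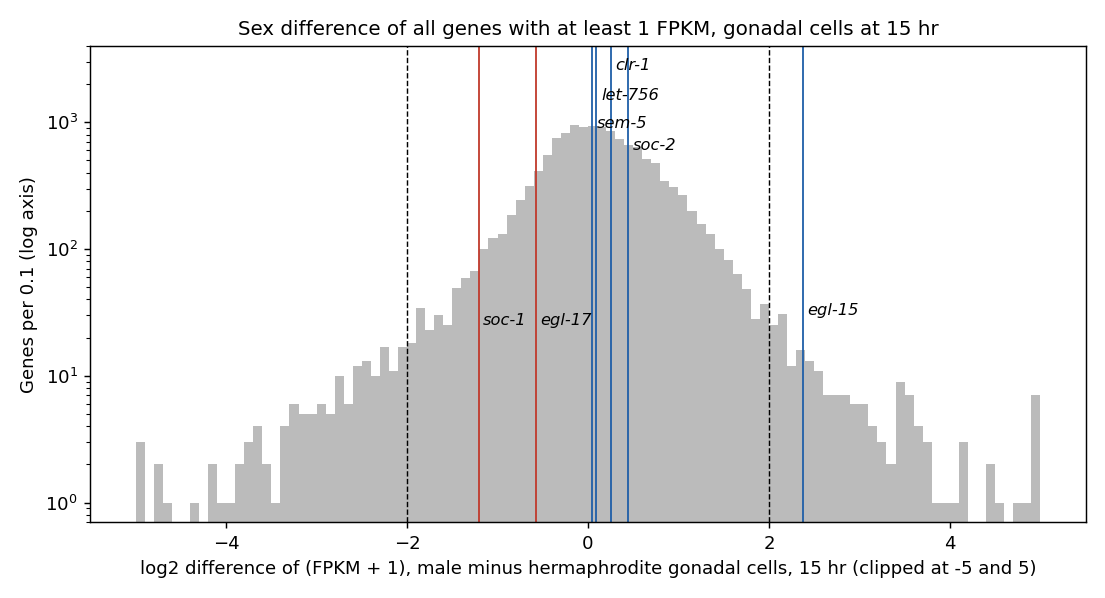
Number of genes (y axis, log scale) by log2 difference of FPKM + 1, male minus hermaphrodite gonadal cells, at 15 hr (x axis) for the 13667 genes compared. Vertical lines mark the 7 genes, blue where males were higher and red where hermaphrodites were higher, and dashed lines mark 4-fold. *egl-15* (2.38) lies in the male tail, *soc-1* (-1.21) lies on the hermaphrodite side within 4-fold, and the remaining genes lie near the center.

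The times were analyzed in separate Cuffdiff runs with separate normalization, so values at 9.5 and 15 hr are set side by side without a call. The male minus hermaphrodite log2 difference of *egl-15* in gonadal cells was 1.33 at the earlier and 2.38 at the later time, and that of *soc-1* was 0.11 and -1.21. For *clr-1* it was 0.07 and 0.26, and for *sem-5* 0.13 and 0.04. Across the 8 groups *egl-15* FPKM spanned 12-fold, *let-756* 6.35-fold, *egl-17* 6.08-fold and *soc-1* 3.42-fold, while *soc-2*, *clr-1* and *sem-5* spanned 2.01-fold, 1.81-fold and 1.52-fold.

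Other genes of the pathway were examined as a list of 21, of which 18 to 21 passed the filter in a given comparison. It held the Klotho-like genes *klo-1* and *klo-2*, heparan sulfate carriers, the phosphatase gene *ptp-2*, the Ras gene *let-60* with its exchange and GTPase-activating factors, the Raf, MEK and MAP kinase genes *lin-45*, *mek-2* and *mpk-1*, scaffolds, and transcription factors. Between male and hermaphrodite gonadal cells none of the 18 genes compared at 9.5 hr and none of the 19 at 15 hr differed by 4-fold, where 0.723% and 2.5% of all genes did. The medians were 0.13 and 0.23, beside 0.01 and 0.09 for all genes. In whole animals the count was 0 of 21 at 9.5 hr and 1 of 20 at 15 hr, against 0.846% and 0.734%. The *egl-15* sex difference in gonadal cells at 15 hr was thus larger than that of any listed gene compared.

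The single whole-animal sex difference past 4-fold was that of *gpn-1*, which encodes a glypican, a heparan sulfate proteoglycan of the cell surface. At 9.5 hr *gpn-1* had 0.481 and 0.145 FPKM in male and hermaphrodite gonadal cells and 1.17 and 1.69 FPKM in whole animals. At 15 hr it had 35.1 and 124 FPKM in gonadal cells and 1.42 and 9.61 FPKM in whole animals. It was thus higher in hermaphrodites at 15 hr, with male minus hermaphrodite log2 differences of -1.79 in gonadal cells and -2.13 in whole animals. Gonadal cells had more *gpn-1* than whole animals at that time, with log2 differences of 3.90 in males and 3.56 in hermaphrodites.

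Between gonadal cells and whole animals 2 of 21 pathway genes differed by 4-fold in each sex at 9.5 hr, and 4 of 20 in males and 5 of 20 in hermaphrodites at 15 hr. Over all genes the shares were 15.1%, 15.2%, 18.2% and 25.2%, so that the list's shares were close to or below those of the transcriptome. Apart from *gpn-1*, all of these were lower in gonadal cells. *gap-1*, which encodes a GTPase-activating protein for Ras, was counted in all 4 comparisons, with log2 differences of -2.16 and -2.21 in males and hermaphrodites at 9.5 hr and -2.36 and -2.04 at 15 hr. Centered on the median gene it stayed past 4-fold only in males at 15 hr (-2.26), the others being -1.87, -1.60 and -1.81. *mls-2*, a homeobox gene of the lineage that gives rise to the sex myoblasts, was counted in 3, with -2.15 and -2.33 at 9.5 hr and -2.13 in hermaphrodites at 15 hr, and after centering in none of these (-1.86, -1.71 and -1.91). *lin-31*, which encodes a forkhead protein controlled by MAP kinase in vulval cells, was counted at 15 hr, with -2.63 in males and -2.58 in hermaphrodites. *klo-1* had 3.54 and 2.29 FPKM in male and hermaphrodite gonadal cells at 15 hr, against 17.5 and 18.1 FPKM in whole animals, log2 differences of -2.03 and -2.54, the first of which was -1.93 after centering.

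Likeness of pattern was measured by the Pearson correlation of log2(FPKM + 1) over the 8 groups among 7178 genes that spanned at least 4-fold. The 8 points come from 2 separately normalized runs, and no p is given. The genes most like *egl-15* were *prx-3* (r = 0.97), *C34C6.7* (r = 0.97) and *Y48G9A.9* (r = 0.97), and 60 genes reached 0.9. *prx-3*, for example, had 4.75 FPKM in gonadal cells of males at 15 hr and 1.11 FPKM in those of hermaphrodites. Those most like *egl-17* were *D1079.1*, *K08F4.12* and *Y57A10C.6* (r = 0.93 for each), with 13 genes at 0.9 or more. Those most like *let-756* were *vap-1* (r = 0.996), *nlp-31* (r = 0.996) and *C24A3.4* (r = 0.994), with 1812 genes at 0.9 or more, so that its low gonadal level was a pattern shared with many genes. Among the 7 genes themselves, the highest correlation was that of *egl-17* with *let-756* (r = 0.82) and the lowest that of *egl-15* with *soc-1* (r = -0.87), hermaphrodite gonadal cells at 15 hr being the lowest group for *egl-15* and the highest for *soc-1*.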

How the data were processed

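RNA from 20 samples in 8 groups had been depleted of ribosomal RNA and made into TruSeq libraries without selection for poly(A). The submitters' processing notes name CASAVA 1.8, TopHat 1.4.1, Picard 1.56, Cuffdiff 2.1.1 and the genome build ce10. The authors' deposited values are FPKM, in which Cuffdiff had combined the samples of each group, with 1 run per time. Strain names in the tables were matched to groups from the study's methods. The authors' fold changes, test statistics, p-values and q-values were not used.

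Log2 differences of FPKM with a pseudocount of 1 were computed for genes with at least 1 FPKM in either group. The tools were Python 3.11.15, pandas 2.3.3 and numpy 2.4.6. The computation was tested on simulated data that held no noise and no changed genes of low level. That run checked the arithmetic only and does not bear on genes at low levels. The limit of 4-fold (log2 of 2) was one reading of the study's cutoff, whose wording can also mean 2-fold, and both limits are given. No test was made, since the pooled values used here carry no spread, and depth per sample is unknown. The 1 row without a gene name (0.177% to 0.293% of FPKM) was left out, and 19 entries merge several genes. Reads of overlapping or antisense genes may be shared, though no gene span in the tables overlaps one of the 7. Coordinates are 1-based gene spans on ce10. *klo-1* and *klo-2* were matched by RefSeq locus tag to *C50F7.10* and *E02H9.5*, and the pharyngeal marker *myo-1* was not matched. Named genes are the 7, other pathway genes past 4-fold in any comparison, and the 3 genes most like each gene spanning at least 4-fold, with *ptp-2* added after its values were seen. The genes and lists were chosen with earlier results of these data known. Promoter sequences were not used here.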

Additional observations from a re-analysis of the deposited data

How the results depend on the processing

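Values of the 7 genes were recomputed with a pseudocount of 0.1 FPKM, with none, without the filter, with a filter of 5 FPKM, with FPKM rescaled to the same sum in every group, and centered on the median of all genes. Of 332 log2 differences, 6 changed sign and 3 changed their side of 4-fold. The 2 filter settings decide only which genes are kept, so their 56 (no filter) and 52 (5 FPKM) differences could not move. The filter of 5 FPKM dropped some differences of *egl-17* and *let-756*. The 3 were *egl-17* in male gonadal cells against whole animals at 15 hr, which was -2.16 with a pseudocount of 0.1, -2.22 with none and -2.003 after rescaling, so that the count past 4-fold there was 1 in place of 0. The sign changes were of small differences of *clr-1*, *sem-5* and *egl-17*, 5 of them under centering and 1 under rescaling. The largest was *clr-1* at 9.5 hr in hermaphrodite gonadal cells against whole animals, at 0.22 after centering. That comparison had the largest median over all genes, -0.62, and centering adds its size to every difference. With the filter of 5 FPKM its median was 0.03, so the size of this shift depends on the filter. In that comparison centering moved *egl-15* from -0.97 to -0.35. At 2-fold, centering gave a count over the 7 genes of 0 in place of 2 in males and of 1 in place of 2 in hermaphrodites against whole animals at 9.5 hr. The *egl-15* differences past 4-fold kept their side in every alternative run.

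Counts of the other pathway genes past the limit moved more. Against whole animals at 9.5 hr, centering gave 0 in place of 2 in males and in hermaphrodites, and with a pseudocount of 0.1 or none the hermaphrodite count was 6. Centering gave 3 in place of 5 in hermaphrodites and 3 in place of 4 in males at 15 hr. With the limit at 2-fold the counts were 7 and 9 in males and hermaphrodites at 9.5 hr, 8 in each sex at 15 hr, and 1 between the sexes in gonadal cells at 15 hr. Of all genes 41.9%, 49.6%, 50.7%, 57.4% and 14.5% were past 2-fold in these comparisons, larger shares than those of the list.

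No paired analysis was possible because each group has 1 pooled value, and for the same reason no sample was left out. Low levels limit *egl-17* most, since it stays below 4 FPKM in all gonadal groups and its reads are unknown.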

Other observations

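*egl-15*, *egl-17* and *sem-5* lie on chromosome X, whose median gene was lower in gonadal cells than in whole animals. At 9.5 hr the X-linked median log2 difference was -0.84 in males (2494 genes) and -1.16 in hermaphrodites (2602 genes). At 15 hr it was -1.04 (2348 genes) and -1.28 (2359 genes). Medians over all genes were -0.29 and -0.62 at 9.5 hr and -0.10 and -0.22 at 15 hr. These depended on the filter, and the X-linked medians are given for that of 1 FPKM only. The study reports chromosome X to be over-represented among its gonad-enriched transcripts, for each sex and time. A median over X-linked genes does not count such transcripts and so does not address that result. *sem-5* was at 0.11 (9.5 hr) and -0.21 (15 hr) in males and at 0.00 and -0.09 in hermaphrodites, above the X-linked median in each. *egl-15* was above that median in 3 of the 4 comparisons and below it in hermaphrodites at 15 hr (-2.77). *egl-17* was below it in 3, at -1.25 (9.5 hr) and -1.77 (15 hr) in males and at -1.28 for hermaphrodites at 9.5 hr, and above it in hermaphrodites at 15 hr (-0.17). Between male and hermaphrodite gonadal cells the X-linked median was 0.12 at 9.5 hr and 0.19 at 15 hr, beside 1.33 and 2.38 for *egl-15*.

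*ptp-2*, described after its values were seen, encodes a tyrosine phosphatase of the SHP2 kind that acts with SOC-1 downstream of EGL-15. It exceeded its whole-animal level in gonadal cells of each sex at each time. Its levels in male and hermaphrodite gonadal cells were 101.5 and 95.3 FPKM at 9.5 hr and 116 and 109 FPKM at 15 hr. In whole animals they were 49.4 and 44.8 FPKM at 9.5 hr and 43.8 and 41.5 FPKM at 15 hr. The log2 differences of 1.03 to 1.38 were all below the 4-fold limit, and no sex difference of *ptp-2* exceeded 0.14. Between sorted and unsorted cells 35.1% to 45.5% of the genes compared differed as much as *ptp-2* or more, in either direction.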
